A study of Solanum tuberosum with 136 samples.

Results

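The genes described here are 80 potato genes whose transcripts were higher in the primary bud of stored tubers at every sampled week of ethylene treatment. In the flesh of the tubers the same genes were not higher at 1 or more of these weeks. They were chosen by their measured values among 32878 genes with an ID in the deposited table. The level of a gene in a group was log2(mean CPM of 4 libraries + 1), where CPM is a gene's count scaled to the library total over all named genes. The difference was the level under ethylene minus the level of the control of the same week. A gene qualified when its lowest bud difference over weeks 3, 6, 9, 12 and 15 was above 0.1, its lowest flesh difference was at most 0 and its mean flesh difference was under 0.2. The bud condition was met by 423 genes and all conditions by 214, of which the 80 with the highest minimum bud difference were kept. Values of weeks 3 to 15 are therefore a description without a test. The main tests were made only on libraries that the choice did not use, those of weeks 0, 16, 17 and 18. An alternative fit to all weeks, given at the end, also took in the libraries of weeks 3 to 15.

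All tubers were of the potato cultivar Russet Burbank. Control tubers, which were stored without ethylene, were sampled at weeks 0, 3, 6, 9, 12, 15, 16, 17 and 18. Treated tubers were held in 10 ppm ethylene and sampled at weeks 3, 6, 9, 12 and 15. Others were moved to air after 15 weeks of ethylene and sampled at weeks 16, 17 and 18, so the air groups have all had the full treatment. Primary bud and flesh were each sampled in 17 such groups of 4 RNA sequencing libraries.

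Ethylene is a gaseous plant hormone. It is bound by receptors in the endoplasmic reticulum, which in its absence keep a protein kinase active that holds the pathway off, and with ethylene a family of transcription factors is released that switches on target genes. The buds of a potato tuber are dormant after harvest and later grow into sprouts, and ethylene in the storage air is used to hold back that growth. Of the 80 IDs, 0 were found in the RefSeq gene table used for naming, so the genes are given by ID in the order of their patterns, without names or roles. For the same reason the tissue labels were not checked against marker genes.

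Library totals lay between 16.6 M and 50.9 M counts. Whether the 4 libraries of a group stand for different tubers is not stated in the labels, and p-values therefore measure only the spread between these libraries, which may be technical. A level in a tissue sample cannot tell more transcript per cell from more cells that hold it. A 0 in the deposited table is not an ordinary sampled 0. Only 0.211% of the non-zero counts were between 1 and 3, and in 10.3% of the member and group pairs with a library of at least 20 counts another library of the same group was at 0. Genes are therefore called listed at 0, and no fold is given against a group in which every library was at 0. The library of replicate 1 in buds in air at week 17 stood apart from its group, with a median correlation of 0.832 with the other libraries of its group against a median of 0.986 over all libraries (log2(CPM + 1), across genes).

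Replicate 1 also stood out among the treated buds when the 80 genes were summarised as a set level, the mean over them of log2(CPM + 1). Under ethylene the set level of replicate 1 was the highest of the 4 libraries in 5 of 5 bud groups, and in air after ethylene in 3 of 3, against 3 of 9 control groups. At week 6 the ethylene buds were at 4.30, 3.54, 3.47 and 3.56 and the control buds at 3.11, 3.15, 3.22 and 3.10. At week 9 they were at 3.97, 3.27, 3.41 and 3.49 against 2.39, 2.37, 2.41 and 2.37. The treated libraries lay above the controls in both weeks, and the other 3 ethylene libraries were closer to each other than to replicate 1. What sets replicate 1 apart was not tested.

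**Figure D1:**
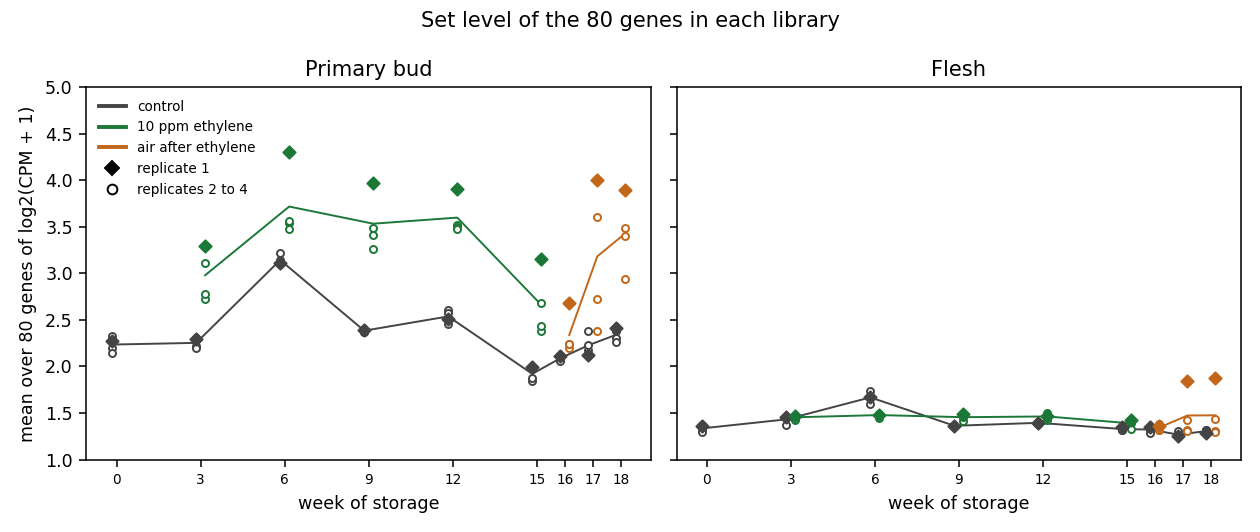
Set level of the 80 genes (mean of log2(CPM + 1)) in each library by week of storage, for primary bud and flesh; lines join group means. Filled diamonds are replicate 1, which reached 4.30 at week 6 of ethylene in bud, and flesh stays between 1.25 and 1.73 apart from replicate 1 in air at weeks 17 and 18 (1.84 and 1.87).

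The size of the bud difference varied widely within the set. The lowest of the weekly differences was over 1 in 5 genes and over 0.5 in 20, and it was under 0.3 in 41, so that the median gene had a minimum of 0.29. The median difference was 0.50, 0.56, 0.90, 0.79 and 0.69 at the 5 weeks in order. Week 9 was the week of the largest difference for 32 genes, and week 6 that of the smallest for 26. All 4 ethylene libraries lay above all 4 controls in 43, 34, 52, 54 and 25 of the 80 genes at weeks 3, 6, 9, 12 and 15. The same separation was seen in 9.41%, 6.4%, 7.09%, 8.1% and 9.27% of all genes with a count in either group, from which nothing is read because these weeks chose the members. In 11 genes the groups did not overlap in any of the 5 weeks, and in 6 they overlapped in all 5.

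The 4 genes with the highest minimum difference carry neighbouring IDs on chromosome 1. In Soltu.DM.01G041860 the control buds of week 9 were at 5.05, 8.15, 5.38 and 4.48 CPM and the ethylene buds at 139, 81.7, 57.1 and 106.5 CPM. At week 15 the controls were at 1.24, 1.84, 2.26 and 1.77 CPM and the ethylene buds at 67.4, 28.8, 21.2 and 16.8 CPM. The groups were apart in both weeks, and replicate 1 was the highest ethylene library in each. Soltu.DM.01G041900 led the set, with a minimum difference of 1.87. Its control buds of week 6 were at 25.4, 27.8, 37.5 and 25.8 CPM and its ethylene buds at 185, 91.5, 79.9 and 78.9 CPM, so that every treated library exceeded every control. The minimum was 1.84 in Soltu.DM.01G041910 and 1.76 in Soltu.DM.01G041870, and all 4 genes had their largest difference at week 9 and their smallest at week 6. In flesh these 4 were close to absent, with means over 68 libraries between 0 and 0.0359 CPM.

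**Figure D2:**
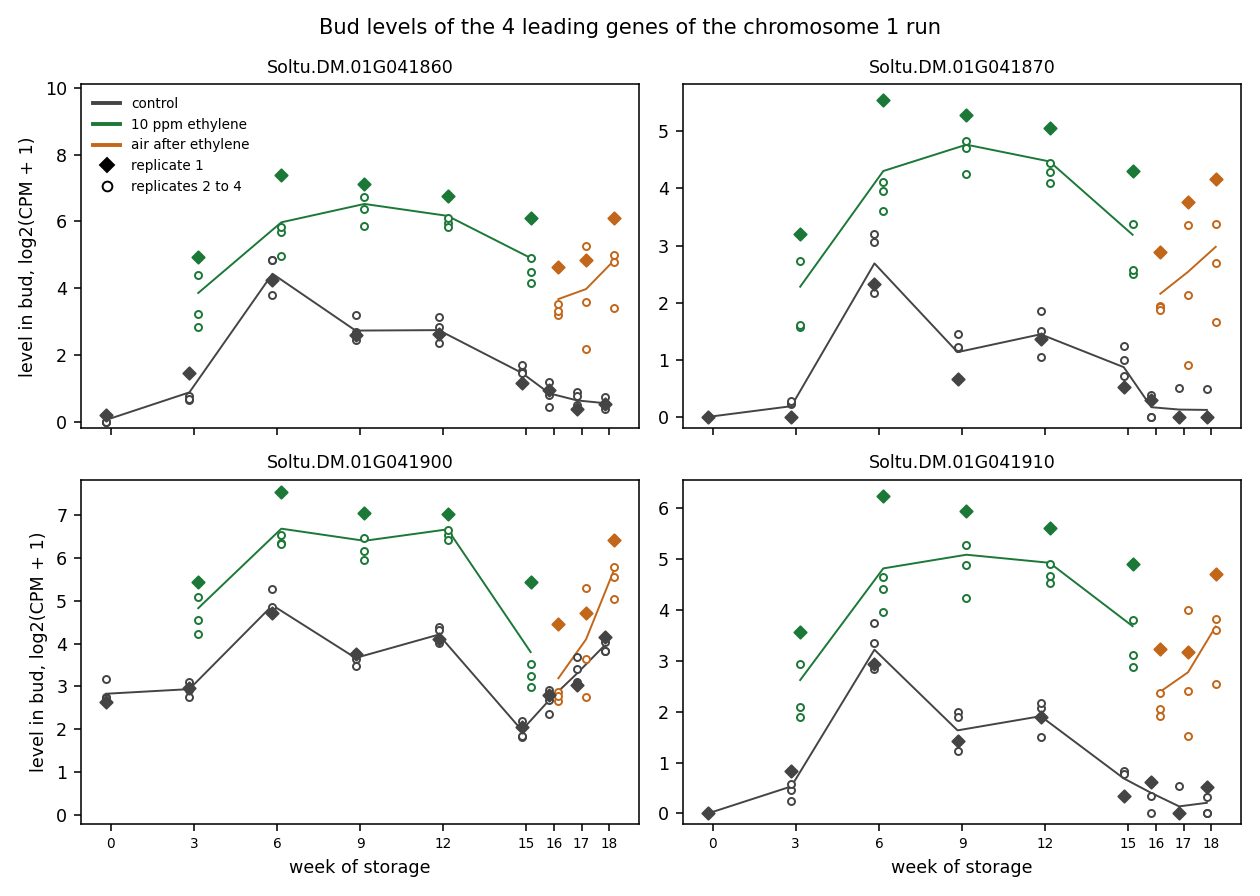
Level in primary bud (log2(CPM + 1)) of the 4 chromosome 1 genes with the highest minimum difference, in each library by week; lines join group means and filled diamonds are replicate 1. The ethylene libraries lie above the controls in all 5 weeks of treatment, and in Soltu.DM.01G041860 the air libraries stay above the controls at weeks 16, 17 and 18.

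Other leading genes followed other courses. Soltu.DM.07G013460, listed at 0 in all 68 flesh libraries, was low in bud, with week 12 controls at 1.25, 0.566, 1.04 and 0.959 CPM and ethylene buds at 10.0, 4.53, 2.80 and 4.57 CPM. The groups were apart in that week. In Soltu.DM.03G015170 the difference was large at week 9 and small at week 6. At week 9 its controls were at 2.93, 1.76, 1.78 and 1.52 CPM and its ethylene buds at 53.7, 16.6, 17.9 and 18.3 CPM. At week 6 the controls themselves reached 19.96, 18.98, 22.4 and 16.5 CPM and the ethylene buds 66.95, 30.2, 20.2 and 18.98 CPM, and the groups overlapped. The remaining genes among the 10 with the highest minimum were Soltu.DM.08G020030 (0.933), Soltu.DM.03G015190 (0.910), Soltu.DM.01G045910 (0.875), Soltu.DM.01G041840 (0.871) and Soltu.DM.01G005400 (0.818).

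A high control level at week 6 was common in the set. Of the 9 control weeks, week 6 had the highest bud level in 38 of the 80 genes and week 0 in 14. The set level of control buds was 2.25 at week 3, 3.14 at week 6 and 2.38 at week 9. Ethylene buds were likewise highest at week 6 in 39 genes and at week 12 in 23. Soltu.DM.08G017400 had week 6 controls at 4.99, 4.16, 5.32 and 5.45 CPM and ethylene buds at 28.3, 9.30, 9.31 and 5.49 CPM. The lowest of these ethylene libraries was just above the highest control, and the flesh libraries of this gene were all listed at 0.

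Membership depended on replicate 1 more than on any other replicate. When replicate 1 was left out of every group, 46 of the 80 genes still met the conditions, against 73, 69 and 74 without replicate 2, 3 or 4. The bud difference then stayed above 0 in all 5 weeks in 65 of the 80 genes, and the weekly medians were 0.43, 0.37, 0.73, 0.70 and 0.50. At the edge of the set, Soltu.DM.09G001710 was the last gene kept, with a minimum of 0.193. Its week 12 controls were at 23.3, 20.8, 22.7 and 20.6 CPM and its ethylene buds at 28.7, 26.5, 26.9 and 18.2 CPM, with replicate 4 of ethylene below all controls. The first gene outside, Soltu.DM.07G016130, had a minimum of 0.192. Its week 6 controls were at 0.862, 1.89, 1.16 and 1.58 CPM and its ethylene buds at 3.14, 0.851, 1.65 and 1.19 CPM, and these overlapped too.

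Most of the 80 genes were scarcely detected in flesh. The mean over the 68 flesh libraries was under 1 CPM in 50 genes and under 0.1 CPM in 40, and 17 were listed at 0 in every flesh library. In 25 genes the flesh difference was exactly 0 in all 5 weeks. Among genes with a bud mean of at least 1 CPM, 57.7% of the 71 members fell under 1 CPM in flesh, against 14.1% of all 19147 such genes. A gene without flesh counts meets the flesh conditions by itself, so for these genes the choice says only that flesh held no measurable transcript.

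**Figure D3:**
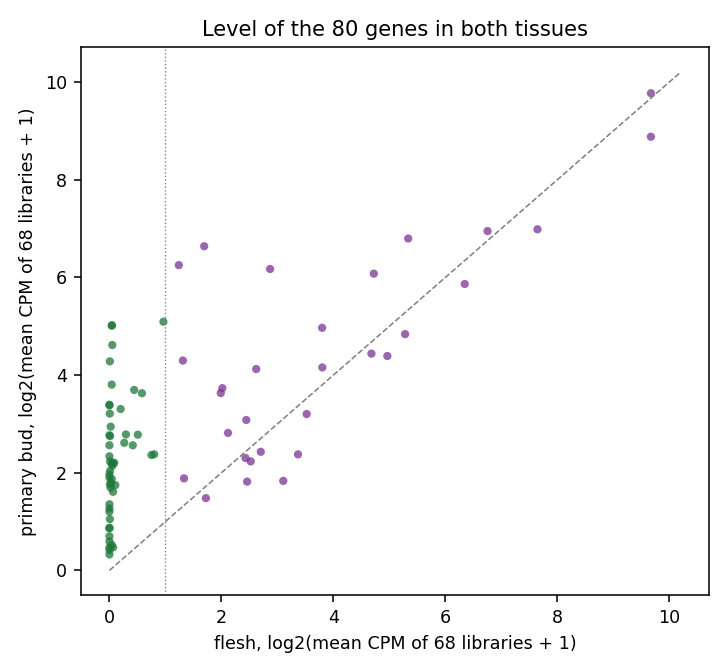
Mean level over 68 libraries of each of the 80 genes in flesh (x axis) and primary bud (y axis), both as log2(mean CPM + 1). The dotted line marks 1 CPM in flesh, with 50 genes to its left, and the dashed line marks equal levels.

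The other 30 genes were measured in flesh at 1 CPM or more. Soltu.DM.01G001990 was among the most abundant, with a mean over 68 libraries of 814 CPM in flesh and 470.2 CPM in bud. In bud at week 3 the controls were at 453, 484, 458 and 478 CPM and the ethylene buds at 908, 832, 783 and 832 CPM, without overlap. In flesh at the same week the controls were at 591, 731, 518 and 588 CPM and the ethylene flesh at 678, 682, 589 and 631 CPM, which overlapped. Under ethylene at that week every bud library was above every flesh library. The flesh groups did not overlap at weeks 6 and 9, where all ethylene libraries were higher: at week 6 the means were 764 ± 60.4 CPM in controls and 976 ± 67.3 CPM under ethylene, and at week 9 927 ± 14.5 and 1009.9 ± 71.5 CPM (SD, n = 4). Soltu.DM.08G020030 was at 6.25, 9.15, 8.91 and 6.34 CPM in control buds of week 15 and at 37.4, 27.5, 18.1 and 15.4 CPM in ethylene buds. Its flesh was at 26.9, 34.8, 32.95 and 30.6 CPM in controls and at 14.9, 34.2, 25.1 and 43.7 CPM under ethylene. The bud groups were apart and the flesh groups overlapped.

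At week 6 a few genes differed from their controls in opposite directions in the tissues. The flesh difference was below -1 in 6 genes at that week and in 0 at the other weeks of ethylene. Soltu.DM.01G019850 was at 19.2, 23.2, 20.4 and 14.5 CPM in control flesh and at 2.49, 1.20, 1.54 and 1.53 CPM in ethylene flesh. In bud it was at 149, 194, 175 and 184 CPM in controls and at 452, 276, 247 and 265 CPM under ethylene. Neither pair of groups overlapped, and the signs were opposite. Soltu.DM.01G045910 showed the same arrangement, with control flesh at 5.70, 5.87, 4.95 and 3.12 CPM, ethylene flesh at 0.815, 0.234, 0 and 0.352 CPM, control buds at 22.9, 28.7, 23.7 and 23.3 CPM and ethylene buds at 78.9, 39.5, 31.7 and 34.1 CPM. Control flesh was high in these genes at week 6 alone, as control buds were. In Soltu.DM.01G019850 the flesh differences at weeks 3, 9, 12 and 15 were 0.14, 0.83, 0.89 and 0.02. Week 6 alone brought its lowest flesh difference to at most 0, as the choice required. At weeks 9 and 12 every ethylene flesh library of this gene was above its controls, all listed at 0. The choice favours such a fall in flesh, so nothing is read from it.

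**Figure D4:**
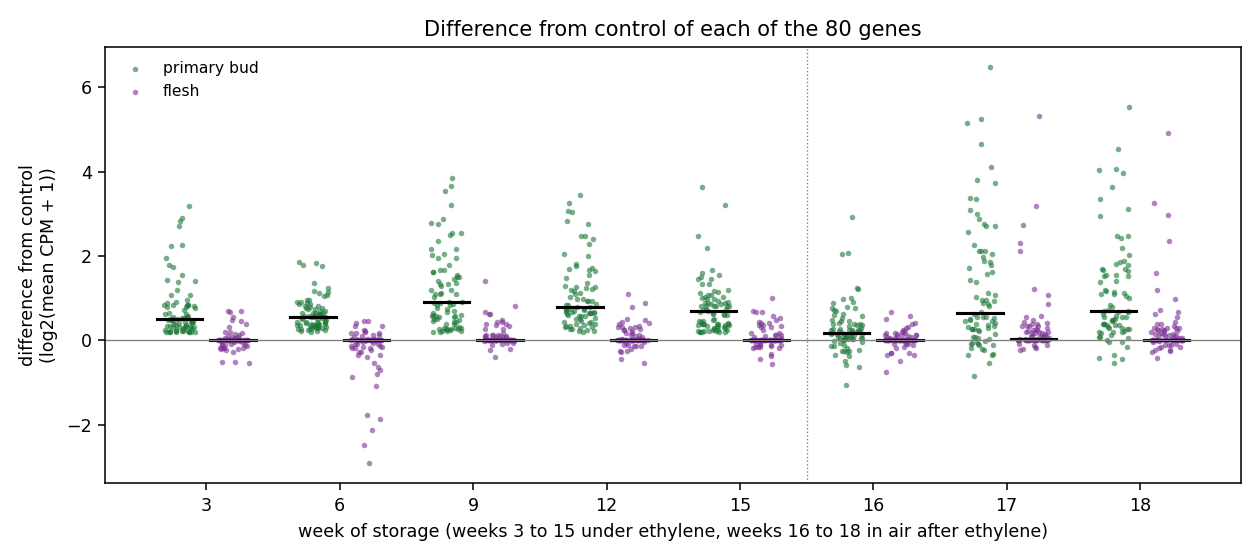
Difference from the control of the same week, in log2(mean CPM + 1), of each of the 80 genes in primary bud and in flesh, with black bars at the medians. Bud medians are 0.50 to 0.90 at weeks 3 to 15, which chose the genes, then 0.19, 0.66 and 0.70 at weeks 16 to 18 in air; the flesh points far below 0 at week 6 include Soltu.DM.01G019850 (-2.92).

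Bud and flesh were compared at week 0, before any treatment, where more members were higher in bud than in flesh. At week 0, 42 of the 80 genes were higher in bud and 8 lower in edgeR's quasi-likelihood test with Benjamini-Hochberg adjustment at 0.05, against 27.6% and 19.2% of all 24153 genes tested. The choice favoured genes absent from flesh, and 42 members had a tissue with every library at 0 in this comparison, so the count was largely fixed by the choice and the filter and nothing is read from it. Of the 30 genes with a flesh mean of at least 1 CPM, 15 were higher in bud and 8 lower. Soltu.DM.09G030430 was at 28.3, 37.3, 22.8 and 14.7 CPM in bud and listed at 0 in all 4 flesh libraries. Soltu.DM.02G026170 was at 11.7 ± 1.72 CPM (SD, n = 4), Soltu.DM.08G001810 at 14.8 ± 2.15 CPM and Soltu.DM.01G019820 at 8.58 ± 0.903 CPM in bud. All 3 were listed at 0 in the 4 flesh libraries.

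Some members ran the other way at week 0. Soltu.DM.08G020030 was at 0.654, 1.28, 1.11 and 0.973 CPM in bud and at 7.998, 7.85, 4.40 and 4.51 CPM in flesh, without overlap. Its log2 fold change was -2.67 (SE 0.43, adjusted p = 1.05e-06, edgeR). Soltu.DM.03G033090 was at 54.6 ± 6.27 CPM (bud) and 153 ± 25.6 CPM (flesh; SD, n = 4), a log2 fold change of -1.55 (SE 0.18, adjusted p = 1.58e-09, edgeR). Soltu.DM.09G003740 and Soltu.DM.07G024720 were also lower in bud, with log2 fold changes of -1.80 and -0.98 (adjusted p = 2.59e-06 and 0.000573, edgeR).

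In buds moved to air the median difference from the control was small at the first week and larger at the next ones. The median difference of the 80 genes had been 0.69 under ethylene at week 15, and in air it was 0.19, 0.66 and 0.70 at the successive weeks 16, 17 and 18. The value of week 15 was among those that chose the genes and the later ones were not, so a smaller value after week 15 can come from the choice alone. Among the air weeks, which the choice did not use, the difference was larger at week 18 than at week 16 in 67 of the 80 genes. The genes share the same libraries and no share over all genes was taken, so nothing is read from this count. In the test of that change, given below, no member passed. At week 16 edgeR called 3 genes higher and 1 lower, against 1% and 1.14% of the 23674 genes tested. At week 17 it called 40 higher and 0 lower (6.52% and 1.41% of all genes), and at week 18 it called 17 higher and 0 lower (1.49% and 0.642%). These counts include members with a group at 0, which may have passed the low-count filter only through their other groups. Of the 30 genes with a flesh mean of at least 1 CPM, none had a group at 0 in these comparisons. Among those 30, edgeR called 0, 12 and 4 higher and 1, 0 and 0 lower at the 3 weeks. A log2 ratio was also taken for all 80 genes from group mean CPM, with groups at 0 (in 7, 8 and 3 members) set to a floor of 3 counts. Its median was 0.27, 1.11 and 1.12 at the 3 weeks. In edgeR, which scales by TMM, the median log2 fold change of the 80 genes was 0.29, 1.29 and 1.11. Over all genes tested edgeR gave -0.01, -0.05 and -0.004. All 4 air libraries lay above all 4 controls in 11 of 79 members with a count, 22 of 80 and 47 of 80, against 3.97%, 3.31% and 6.46% of all genes.

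The weekly counts moved with single libraries. Leaving out replicate 1 of air at week 17 gave 7, 22 and 36 higher genes at weeks 16, 17 and 18. At week 16 the count was 1 without air replicate 1 or without control replicate 2, 3 or 4. At week 17 it was 26 and 25 without control replicates 2 and 3. At week 18 it was 8, 7, 10 and 9 without control replicates 1 to 4, and 10 and 11 without air replicates 1 and 3. Without replicate 1 of all 3 air groups, a setting chosen after the data were seen, the counts were 5, 23 and 22 at weeks 16, 17 and 18. All genes then gave 609, 941 and 844. The set level of the air libraries at week 17 was 4.01, 2.73, 2.38 and 3.61 and that of the controls 2.12, 2.18, 2.23 and 2.38, so replicates 1 and 4 were high and replicate 3 was level with the highest control. At week 18 the air libraries were at 3.90, 2.94, 3.48 and 3.40, all above the controls at 2.41, 2.30, 2.38 and 2.27. Over the 3 weeks together, 46 genes were higher and 3 lower (7.02% and 4.6% of all genes). Leaving out any single library gave between 40 and 50 higher, against 1472 to 2169 of all genes. A group at 0 occurred in 11 of the 80 genes. Of the 30 with a flesh mean of at least 1 CPM, which had no such group, 13 were higher and 0 lower. The test over the 3 weeks takes their libraries as independent, although replicate 1 had the highest set level in each week.

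In each of the 3 air weeks 3 genes passed the threshold, all in the chromosome 1 run. No such count was taken over all genes, so nothing is read from the number. The 3 were alike in course, with Pearson's r of 0.978 to 0.991 over the 28 bud libraries that the choice did not use. Soltu.DM.01G041860 was at 0.915, 0.757, 0.366 and 1.27 CPM in control buds of week 16 and at 23.9, 8.24, 10.6 and 8.97 CPM in air. At week 17 it was at 0.301, 0.413, 0.851 and 0.711 CPM and 27.8, 11.1, 3.56 and 37.5 CPM, and at week 18 at 0.454, 0.462, 0.681 and 0.298 CPM and 67.3, 9.60, 30.9 and 26.8 CPM. No air library overlapped a control in any of the weeks, and within air the lowest library at week 17 was replicate 3. The log2 fold changes were 3.97 (SE 0.68), 5.32 (SE 0.73) and 6.13 (SE 0.75), with adjusted p-values of 0.00143, 0.000184 and 4.59e-05 (edgeR). They kept their call when any single library was left out. The same 3 weeks were passed by Soltu.DM.01G041910, from 0.339 ± 0.259 to 4.63 ± 2.61 CPM (SD, n = 4) at week 16 (adjusted p = 0.0281, edgeR), and by Soltu.DM.01G041870, from 0.133 ± 0.157 to 3.67 ± 1.81 CPM (adjusted p = 0.0265, edgeR). Both of these week 16 calls were lost without any single control library of that week and without air replicate 1, and also without air replicate 3 in Soltu.DM.01G041910 and air replicate 4 in Soltu.DM.01G041870. The adjusted p-values in edgeR then reached 0.1 and 0.0983.

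By their group means, some genes were farther above their controls at weeks 17 and 18 than at week 16. Soltu.DM.02G022920 was at 8.96, 13.1, 11.4 and 9.42 CPM in controls of week 16 and at 30.3, 9.22, 12.8 and 15.1 CPM in air, which overlapped. At week 17 the controls were at 8.47, 13.3, 12.7 and 19.1 CPM and the air buds at 1459, 102.01, 27.95 and 592 CPM, and at week 18 at 27.9, 25.3, 16.3 and 15.4 CPM and 414, 62.3, 224 and 213 CPM. In both of those weeks the groups were apart, with replicate 1 the highest. The log2 fold changes were 5.60 (SE 0.83, adjusted p = 0.000304) and 3.42 (SE 0.75, adjusted p = 0.0138, edgeR). The call of week 18 was lost without control replicate 2 or 4. The highest level under ethylene had been 63.5 ± 30.6 CPM (SD, n = 4) at week 6, and air replicates 1 and 4 of week 17 were above every ethylene library.

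Soltu.DM.09G007030 was listed at 0 in all controls of weeks 16 and 17. In air it was at 1.604, 0.493, 0.263 and 1.53 CPM at week 16 and at 235, 13.8, 2.85 and 101.4 CPM at week 17. At week 18 it was at 96.9, 5.80, 47.3 and 45.3 CPM, with a single control library above 0, at 0.278 CPM. The 4 air libraries exceeded the controls in each week, with adjusted p-values of 0.000478 and 0.00272 at weeks 17 and 18 (edgeR). Soltu.DM.08G011070, with all controls of weeks 16 to 18 listed at 0, was at 37.5, 2.54, 1.39 and 23.9 CPM in air at week 17 and at 31.9, 2.32, 15.2 and 13.3 CPM at week 18 (adjusted p = 0.00781 and 0.018, edgeR). The 4 controls of Soltu.DM.09G028720 were listed at 0 at week 17 too, and its air libraries were at 80.2, 9.09, 3.66 and 44.96 CPM (adjusted p = 0.000542, edgeR). Genes with all controls at 0 may have passed the low-count filter through their air libraries, so these p-values add little to the levels. The week 18 call of Soltu.DM.08G011070 was lost without control replicate 1 or 2. In all of these genes replicates 1 and 4 held the high values of week 17 and replicate 3 the lowest.

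**Figure D5:**
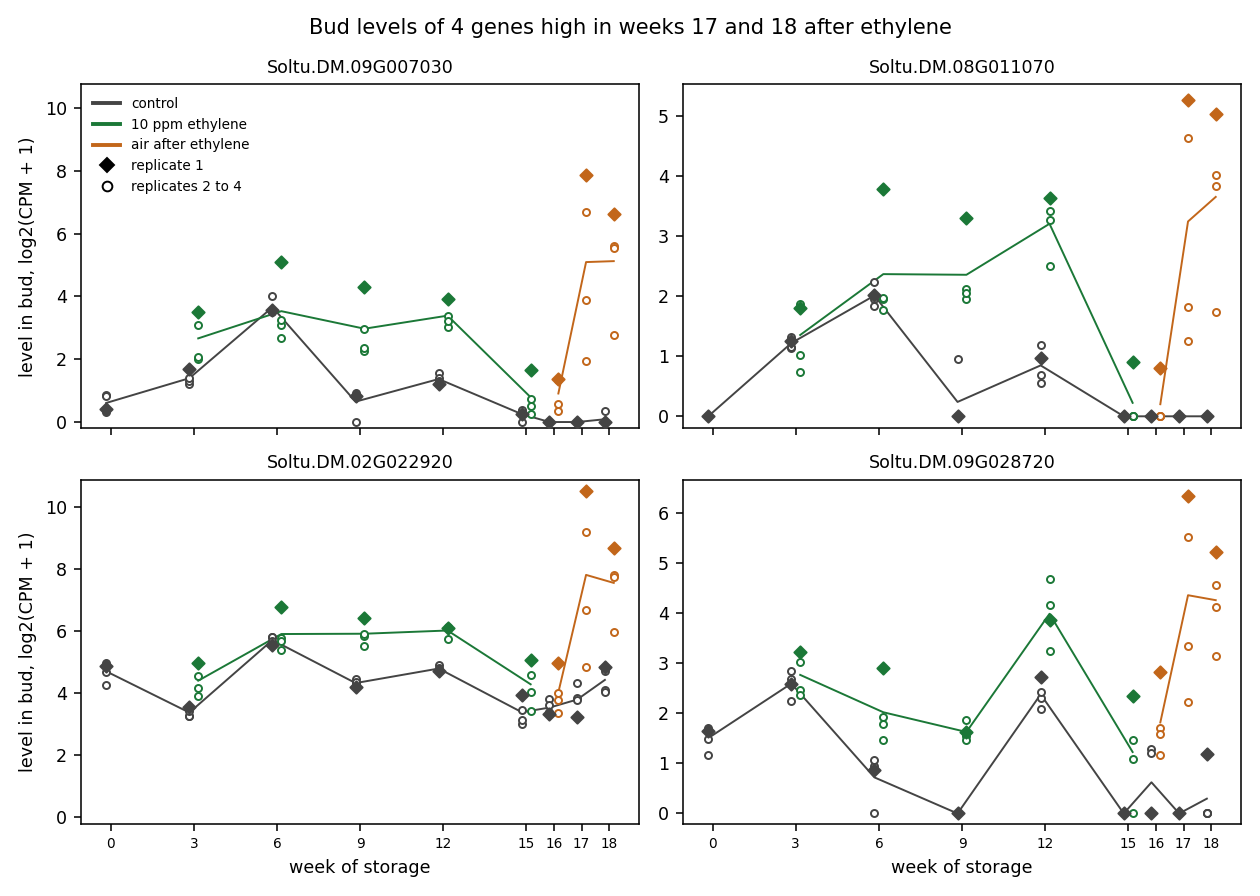
Level in primary bud (log2(CPM + 1)) of 4 genes that were high at weeks 17 and 18 in air, in each library by week; lines join group means and filled diamonds are replicate 1. Within week 17 the air libraries spread widely, in Soltu.DM.09G007030 from 2.85 to 235 CPM.

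The change from week 16 to week 18 was tested as a difference of differences. No member passed that test in edgeR (0 of 80). The median log2 change in the set was 0.79 from group mean CPM with the same floor. In edgeR it was 0.765 in the set and 0.02 over all genes. DESeq2 also called 0 members. Of all genes 5 were higher (0.0211%) and 0 lower in edgeR, and 42 higher and 11 lower in DESeq2. Without replicate 1 of the air groups 1 member was higher, Soltu.DM.12G009510, against 81 of all 23918 genes.

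A few members were lower in air than in the controls. Soltu.DM.08G017400, which stood higher under ethylene in every week, was at 1.23, 1.41, 1.33 and 1.36 CPM in controls of week 16 and at 0.855, 0.634, 0.701 and 0.415 CPM in air, all below the controls. Over the 3 weeks its log2 fold change was -0.68 (SE 0.18, adjusted p = 0.0139, edgeR). Soltu.DM.01G045770 and Soltu.DM.09G030430 were the other 2 genes lower over the 3 weeks, at -0.57 and -0.55 (adjusted p = 0.0339 and 0.0346, edgeR), and each lost its call without single libraries, in 13 and 12 of 24 such fits. Soltu.DM.03G012640 was the gene lower at week 16, at 8.89, 8.63, 9.27 and 9.42 CPM in controls and 5.88, 3.10, 4.64 and 1.79 CPM in air, without overlap (log2 fold change -1.21, SE 0.30, adjusted p = 0.0311, edgeR). It lost its call without any single control library and without air replicate 2, 3 or 4.

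Storage without ethylene moved the members in both directions. Between weeks 0 and 18 of control buds, 16 genes were higher and 12 lower, against 24.4% and 18.6% of all genes tested. Neither count of members was above its background share. Soltu.DM.08G020030 rose from 1.00 ± 0.265 to 15.3 ± 1.52 CPM (SD, n = 4), a log2 fold change of 3.68 (SE 0.49, adjusted p = 9.48e-07, edgeR). Soltu.DM.03G012640 rose from 3.11 ± 0.710 to 23.2 ± 1.99 CPM and Soltu.DM.09G027720 from 15.8 ± 3.87 to 67.3 ± 10.9 CPM, with adjusted p-values of 1.16e-07 and 0.00799 (edgeR). Soltu.DM.07G023590 fell from 18.7, 24.04, 20.9 and 20.4 CPM to 4.24, 5.22, 5.72 and 4.24 CPM, without overlap (log2 fold change -2.36, SE 0.27, adjusted p = 8.49e-08, edgeR). Soltu.DM.02G026170 and Soltu.DM.06G023230 fell as well, by log2 fold changes of -3.12 and -2.22 (adjusted p = 0.000101 and 9.98e-07, edgeR).

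In flesh 39 of the 80 genes had enough counts at weeks 0, 16, 17 and 18 to be tested, 29 of them with a flesh mean of at least 1 CPM. The other 10 had a mean under 1 CPM, and some may have passed the low-count filter only through the group in which they were high, so the counts here are over the 29. From week 0 to week 18 of control flesh 8 of the 29 were higher and 3 lower, against 17.9% and 17.6% of all 20637 genes. In 1 of the 29 a group of this comparison had every library at 0. Soltu.DM.08G020030 rose in flesh as it did in bud, from 6.19 ± 2.00 to 44.7 ± 6.34 CPM (SD, n = 4; log2 fold change 2.92, SE 0.26, adjusted p = 2.38e-10, edgeR). Soltu.DM.07G023590, which fell in bud, rose in flesh from 1.85 ± 0.491 to 3.798 ± 0.692 CPM (log2 fold change 1.11, SE 0.32, adjusted p = 0.00665, edgeR). Soltu.DM.08G018950 fell in both tissues, with log2 fold changes of -1.23 (bud) and -1.25 (flesh), respectively (adjusted p = 1.17e-07 and 8.49e-11, edgeR).

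In flesh in air after ethylene, 3 of the same 29 genes were higher than in the controls and 1 was lower over weeks 16 to 18, against 3.26% and 3.74% of all genes. A group with every library at 0 occurred in 3 of the 29, so the limit of the filter remains and nothing is read from these counts. Soltu.DM.01G019850, called higher, had all control flesh of weeks 16, 17 and 18 listed at 0. It lost its call without air replicate 4 of week 16. Several members were high mainly in 1 flesh library of a group. Soltu.DM.02G022920, which missed the threshold (adjusted p = 0.0573, edgeR), was at 0.613, 0, 0 and 0.335 CPM in control flesh of week 17 and at 185, 6.35, 0.649 and 1.08 CPM in air. Soltu.DM.01G019850, with its controls of week 17 listed at 0, was at 30.3, 1.91, 0 and 0 CPM in air, and Soltu.DM.09G007030 was at 25.8, 1.41, 0 and 0 CPM in air at week 18. Replicate 1 was the high library in each case, and the set level of replicate 1 was 1.84 and 1.87 in air flesh at weeks 17 and 18, where the other 6 libraries lay between 1.29 and 1.43. Of all members tested in flesh, 1 was called higher when replicate 1 of all air groups was left out. That gene was Soltu.DM.10G003730, at 727, 798, 779 and 748 CPM in controls of week 18 and 941, 978, 955 and 842 CPM in air (log2 fold change over the 3 weeks 0.24, SE 0.04, adjusted p = 0.000486, edgeR). It was also higher in bud in air, by 0.43 (SE 0.07, adjusted p = 0.000102, edgeR).

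The difference between the tissues in the response after ethylene was tested directly. The effect over weeks 16 to 18 was larger in bud for 5 genes and smaller for 2 (1.43% and 1.01% of all genes). DESeq2 called 7 larger and 11 smaller, against 594 and 430 of all 24153 genes, so the balance of the directions among the members depends on the test. At week 17 Soltu.DM.08G020030 was at 13.3, 11.8, 11.7 and 10.3 CPM in control buds and at 132.6, 29.4, 16.6 and 37.6 CPM in air. Its flesh was at 73.4, 55.1, 44.1 and 49.3 CPM in controls and 42.8, 49.03, 59.4 and 37.6 CPM in air. The bud groups were apart and the flesh groups overlapped, and the difference between the effects over the 3 weeks was 1.92 (SE 0.29, adjusted p = 3.85e-05, edgeR). In Soltu.DM.02G020240 the effects had opposite signs. Its control buds of week 18 were at 79.4, 79.98, 78.8 and 76.2 CPM and its air buds at 90.2, 96.5, 92.6 and 89.3 CPM, while control flesh was at 190.3, 196, 203 and 194 CPM and air flesh at 136.7, 162, 185 and 163 CPM. Over the 3 weeks the log2 fold change was 0.29 in bud and -0.23 in flesh, with a difference of 0.52 (SE 0.08, adjusted p = 2.20e-05, edgeR). Soltu.DM.08G018950 also kept its call when any single air library was left out, as did those 2 genes, with a difference of 0.52 (SE 0.11, adjusted p = 0.00302, edgeR). Soltu.DM.07G023590 and Soltu.DM.03G027010 had larger effects in bud as well, by 0.86 and 0.72 (adjusted p = 0.0331 and 0.0486, edgeR), and lost their calls in 3 and 14 of 24 fits that left out an air library. Both genes with a smaller effect in bud, Soltu.DM.05G021610 and Soltu.DM.09G030430, were listed at 0 in 53 and 63 of the 68 flesh libraries, and neither was called without replicate 1 of the air groups.

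Members lay close together in the genome more than once. Taking members whose IDs are within 5 ID steps of 10 of each other, 21 of the 80 genes formed 7 runs. The longest held 8 members between Soltu.DM.01G041800 and Soltu.DM.01G041910, with 4 genes among them that are not members. By their IDs 22 of the 80 genes are on chromosome 1, or 27.5%, against 12.8% of all genes. Over the 28 bud libraries that the choice did not use, log2(CPM + 1) of the members of a run correlated with Pearson's r of 0.991 to 0.994 in the run of Soltu.DM.03G015160, Soltu.DM.03G015170 and Soltu.DM.03G015190, and 0.988 between Soltu.DM.01G019820 and Soltu.DM.01G019850. In the chromosome 1 run of 8 the range was 0.395 to 0.991. These are descriptions over libraries that share treatment and week. The handling of reads from near-identical copies is not known, so neighbouring genes of similar sequence may share reads and their separate values are uncertain.

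Most members had a single transcript in the deposited transcript table. This held for 67 genes, or 83.8%, against 78.2% of all genes. Among the 13 with more, the share of the leading transcript, pooled over weeks 3 to 15, differed by over 10 percentage points between ethylene and control buds in 2. In Soltu.DM.01G001990 it was 86.8% under ethylene and 70.1% in controls. Over single libraries the medians were 98.4% and 97.7%, with shares under 50% in 3 of 20 ethylene and 7 of 20 control libraries. Soltu.DM.06G023230 had 86.3% and 73.6% in the pooled counts, with under 50% in 2 and 3 of 20 libraries.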

How the data were processed

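RNA was extracted with a Qiagen RNeasy Plant Mini kit, per the labels' protocols, and Trimmomatic, HISAT2, SAMtools and StringTie are named in the submitters' processing notes without versions. No source used here gives the genome build or counting settings. Raw counts per gene and per transcript were deposited by the authors for 34 groups of 4 libraries, which were read as whole numbers. A row that names no gene, with 1.76% to 2.95% of the counts of a library, was left out of totals and tests. No 2 libraries were identical (0 pairs). The D numbers in the labels were read as weeks.

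The 80 genes, the lists and the tests were chosen with earlier results of these data known. Levels were CPM on the deposited counts. Tests used edgeR 4.0.16 in R 4.3.3 (TMM, genes kept by a minimum count of 10, quasi-likelihood F test, Benjamini-Hochberg adjustment over all genes tested, threshold 0.05). They were fitted to the libraries of weeks 0, 16, 17 and 18, 28 per tissue, or to both tissues together. DESeq2 1.42.0, other scalings and filters, the fit to all weeks, a replicate block and leaving out single libraries were the alternatives. Genes named are the 10 with the highest minimum difference, the last gene kept and the first outside, members in runs of neighbouring IDs, and for each comparison up to 4 members each way with the largest fold change past the threshold and at least 1 CPM. Genes outside these, shown for their level or course, were chosen after their values were seen. The code was tested on simulated data. Depth was 16.6 M to 50.9 M counts a library.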

Additional observations from a re-analysis of the deposited data

Results flagged for a closer look

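Of the 34 groups of 4 libraries, 4 had a set level with 1 library far from the others in Dixon's ratio. Chance gives this in about 1 in 20 groups that took no part in choosing the genes. The choice used group means, which 1 high ethylene library raises. That rate is therefore no measure for the groups used in the choice, and nothing is read from the count. The set level was high in replicate 1 of ethylene buds at week 6 (4.30) and week 12 (3.91) and of air buds at week 16 (2.68). It was low in replicate 2 of control flesh at week 3 (1.37).

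A library far from the others was also seen in 11 of 76 groups of single genes. Some of the genes shown were chosen after their values were seen, so no rate of chance is set against this count. In buds under ethylene the far library was high at 185.1 CPM in Soltu.DM.01G041900, 78.9 CPM in Soltu.DM.01G045910, 452 CPM in Soltu.DM.01G019850 and 28.3 CPM in Soltu.DM.08G017400 at week 6, and at 53.7 CPM in Soltu.DM.03G015170 at week 9. All 5 were replicate 1. In air after ethylene replicate 1 was far from the others in bud at week 16 in Soltu.DM.01G041860 (23.9 CPM). In air flesh it was far from the others in Soltu.DM.01G019850 (30.3 CPM) and Soltu.DM.02G022920 (185.3 CPM) at week 17 and in Soltu.DM.09G007030 (25.9 CPM) at week 18. The others were control buds, Soltu.DM.01G045910 at week 6 (28.7 CPM, replicate 2) and Soltu.DM.09G007030 at week 18 (0.278 CPM, replicate 3).

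The effect after ethylene differed between bud and flesh in 7 genes. It was larger in bud in Soltu.DM.02G020240 (adjusted p = 2.20e-05, edgeR), Soltu.DM.08G020030 (3.85e-05), Soltu.DM.08G018950 (0.00302), Soltu.DM.07G023590 (0.0331) and Soltu.DM.03G027010 (0.0486). It was smaller in bud in Soltu.DM.09G030430 (0.0377) and Soltu.DM.05G021610 (0.0448).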

How the results depend on the processing

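Of 1340 values of 68 single-member results under alternatives, 1228 kept their call, the others missed the threshold and 0 changed sign. Alternatives in which a gene was filtered out or had no adjusted p-value are not among the 1340. With the DESeq2 test, 6 members were higher in air at week 16, 26 at week 18, and 7 had a larger and 11 a smaller effect in bud than in flesh. All genes then gave 393, 601, 594 and 430. With all libraries of weeks 0 to 18 in the fit, 5 members were higher at week 16, 29 at week 18, and 4 had a smaller effect in bud. All genes then gave 201, 444 and 383. That fit takes its spread in part from the libraries that chose the members. Without air replicate 1 of every week, chosen after seeing the data, 5 members were higher and 2 lower at week 16, 23 higher and 2 lower at week 17, 5 lower over the 3 weeks and 1 higher in the change from week 16 to 18. All genes then gave 609, 629, 941, 330, 1507 and 81 in the same order. Over all 39 members tested in flesh, 7 were higher and 1 lower in air (673 and 772 of all genes). Without air replicate 1, 1 member was higher in flesh (429 of all genes). In that setting 0 members had a smaller effect in bud than in flesh (261 of all genes). The cause was not tested.

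Leaving out single libraries gave 1 to 7 higher and 0 to 2 lower at week 16, 22 to 48 and 0 to 1 at week 17, and 7 to 36 and 0 at week 18. Over the 3 weeks it gave 40 to 50 higher and 1 to 5 lower in bud and 4 to 10 and 1 to 2 in flesh. It gave 11 to 22 higher and 9 to 19 lower from week 0 to 18 in control buds, and 6 to 7 and 4 to 5 in control flesh. All genes gave 5127 to 7292 and 4001 to 5998 in control buds, and 3364 to 3479 and 3262 to 3348 in control flesh. At week 0 it gave 34 to 42 higher and 8 to 10 lower in bud than in flesh, against 5935 to 7418 and 4114 to 5297 of all genes. For the effect after ethylene it gave 3 to 6 larger and 0 to 2 smaller in bud, against 263 to 573 and 208 to 341 of all genes. Controls of weeks 16 to 18 were not left out in turn there. Of the 80 genes 43 to 62 stayed in the leading 80 without 1 replicate number, with 43 without replicate 1.

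Across genes, 0 of 24 same-numbered pairs of an air and a control library of 1 week had deviations that correlated above 0.1, and 6 of 24 libraries correlated best with their own number, so the numbers were not taken to pair air with control. That check does not compare treated libraries across weeks, where replicate 1 had the highest set level in 5 of 5 ethylene and 3 of 3 air bud groups. Whether libraries of 1 number share a source was not tested. With the replicate block, 3, 34 and 18 members were higher at weeks 16, 17 and 18, 43 over the 3 weeks, and 29 at week 0 in bud against flesh. All genes then gave 260, 1184, 376, 1580 and 5124. A level near the lowest counts in the table is limited by how 0 was set there.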
